A study of Mus musculus with 2 samples.

Results

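The Mir26 genes of the mouse are 3 microRNA (miRNA) genes, Mir26b, Mir26a-2 and Mir26a-1, that lie in introns of genes for small C-terminal domain phosphatases. They were chosen by gene identity, as the rows of the count files that GENCODE M21 names so, and are 3 of the 2202 annotated miRNA genes. Reads of small RNA under 30 bases were counted in adrenal glands of male B6CASTF1/J mice aged 2 months, an F1 cross of the C57BL/6J and CAST/EiJ strains. The series holds 1 group of 2 libraries, from animal 3 (replicate 1) and animal 4 (replicate 2), given by the labels as biological replicates. The labels number the animals and their tissue samples separately but give both the same donor identifier, so that the libraries come from separate mice is taken from the animal numbers, and n = 2 and each SD rest on it. No second tissue, genotype or treatment was analysed here, so the values below are levels in 1 tissue and differences between the 2 libraries, which are called animals on that reading of the labels. The labels name no layer of the gland, and in bulk RNA fewer cells of a type and less RNA per cell cannot be told apart.

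The members of the miR-26 family share the bases with which a miRNA pairs to its targets, and Ezh2 is among the best known of these targets. The family is expressed in most adult tissues and is known for restraining cell growth. Each gene sits in a different host. Ctdsp1, Ctdsp2 and Ctdspl encode phosphatases that act on the C-terminal domain of RNA polymerase II, and a miRNA in an intron can be cut from the transcript of its host. A hairpin gives a product from either arm, named 5p and 3p. The 5p product is the guide strand usually meant by miR-26a or miR-26b.

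The products are shown first because their sequences bear on how reads could be assigned to the genes. Capitals mark the seed, bases 2 to 8 from the 5′ end, and the sequences are those of RefSeq on GRCm38.p6, in which all 3 genes were found.
mmu-miR-26b-5p, from Mir26b: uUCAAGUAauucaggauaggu
mmu-miR-26a-5p, from Mir26a-1 and Mir26a-2: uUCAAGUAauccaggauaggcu
mmu-miR-26b-3p, from Mir26b: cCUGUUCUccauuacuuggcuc
mmu-miR-26a-2-3p, from Mir26a-2: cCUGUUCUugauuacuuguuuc
mmu-miR-26a-1-3p, from Mir26a-1: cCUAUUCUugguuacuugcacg

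The 5p products of all 3 genes carried the seed UCAAGUA, and no other of the 1738 mature products in the RefSeq table did. Mir26a-1 and Mir26a-2 encode the same 5p product, letter for letter. Counted from the 5′ end, miR-26b-5p differs from miR-26a-5p by C11U and C21U (the base of miR-26a-5p is given first) and by its length of 21 bases, against 22. The 3p products differ more. Between miR-26a-1-3p and miR-26a-2-3p there are 6 substitutions, and the one in the seed is A4G (the base of miR-26a-1-3p first). The 3p products of Mir26a-2 and Mir26b share a seed, and differ by U9C, G10C, U19G and U20C (the base of miR-26a-2-3p first).

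The whole hairpins are given with both products in capitals, since what lies outside the 5p product is what tells Mir26a-1 and Mir26a-2 apart. Mir26b differs from both within the 5p product as well.
Mir26b: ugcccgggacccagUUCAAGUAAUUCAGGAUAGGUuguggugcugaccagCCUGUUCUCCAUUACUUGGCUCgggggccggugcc
Mir26a-2: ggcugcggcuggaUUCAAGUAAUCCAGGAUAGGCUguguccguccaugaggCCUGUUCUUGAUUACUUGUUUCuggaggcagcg
Mir26a-1: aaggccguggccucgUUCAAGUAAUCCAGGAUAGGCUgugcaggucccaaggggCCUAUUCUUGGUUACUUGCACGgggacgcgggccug

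Mir26a-1 and Mir26a-2 share an unbroken stretch of 25 bases, which starts at the first base of the 5p product and runs past its end. Mir26b shares at most 11 bases in a row with Mir26a-1 and 10 with Mir26a-2. Over the whole hairpin, aligned end to end, 72.5% of positions were identical between Mir26a-1 and Mir26a-2, 68.8% between Mir26a-1 and Mir26b and 67.4% between Mir26a-2 and Mir26b. Of the 64 windows of 22 bases in the Mir26b hairpin, all 64 were found once among the hairpins of GENCODE M21 on either strand. In Mir26a-2, 59 of 63 windows were found once, and in Mir26a-1, 65 of 69. The other 4 windows of each Mir26a gene occur in both, and they include the complete 5p product. No other annotated transcript of any type held a 22-base window of a member. A genome sequence was not used here, so copies outside annotated transcripts were not searched.

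**Figure D1:**
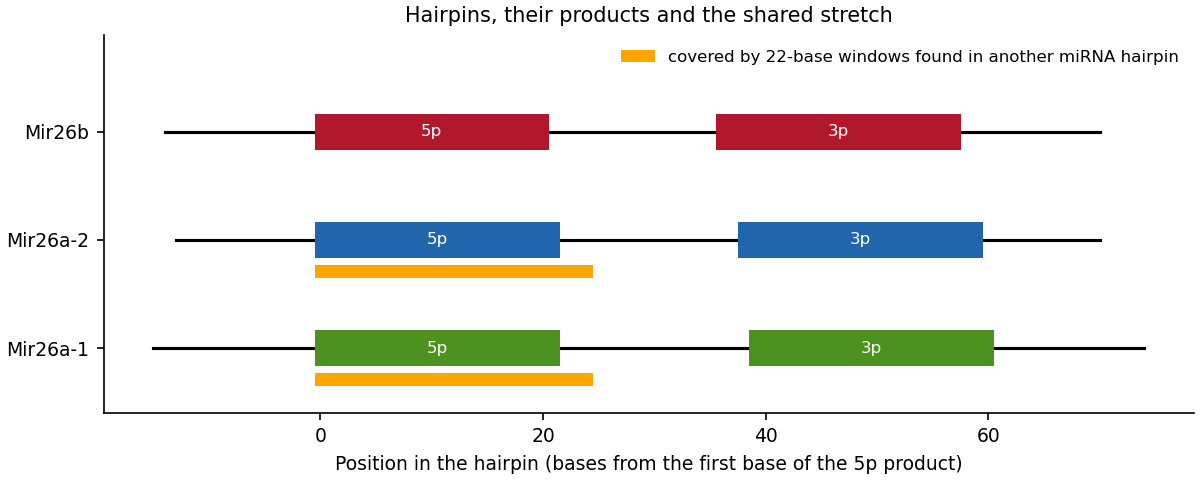
The 3 hairpins drawn to scale, with positions in bases from the first base of the 5p product; blocks are the 5p and 3p products and orange bars the part covered by 22-base windows that occur in another miRNA hairpin. Only the Mir26a-2 and Mir26a-1 hairpins carry such a bar, 25 bases long, and it covers the 5p product and not the 3p product.

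Reads that aligned to several places were kept in a row of their own and not counted at genes. They numbered 4455365 in replicate 1 (39.4% of aligned reads) and 3096387 in replicate 2 (41.2%). A full-length miR-26a-5p read cannot be assigned to Mir26a-1 or Mir26a-2 from its sequence. The counts of these genes therefore come from reads that reach outside the shared stretch or differ from it, such as reads of the 3p arms, but the files do not say which part of a hairpin a read covered. By exact matches, the counts of Mir26b have no such limit among annotated hairpins. The mismatches that the alignment allowed are not given, and the placing of the similar miR-26a-5p and miR-26b-5p reads was not tested.

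The genes lie on the plus strand of different chromosomes (mm10, GENCODE M21). Mir26b spans 85 bases on chromosome 1, from 74394310 to 74394394, in intron 4 of a Ctdsp1 transcript of 7 exons. That intron has 564 bases, and the hairpin stands 234 bases after the upstream exon and 245 before the next one. Mir26a-2 spans 84 bases on chromosome 10, from 126995530 to 126995613, in intron 5 of a Ctdsp2 transcript of 8 exons; the intron has 1946 bases. A shorter coding transcript of Ctdsp2, with 3 exons, is annotated to start on the last base of the Mir26a-2 hairpin, so the hairpin overlaps its exon 1 by 1 base. Mir26a-1 spans 90 bases on chromosome 9, from 119031796 to 119031885, in intron 5 of a Ctdspl transcript of 8 exons. This intron has 3283 bases and is the longest of the host introns named here, with 1543 bases before the hairpin and 1650 after it. Ctdspl itself spans 117546 bases, and its Mir26a-1 hairpin starts 105343 bases from the annotated start of the gene. The corresponding distance is 16813 bases in Ctdsp2 and 2801 in Ctdsp1. No annotated gene overlaps a member on the other strand.

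**Figure D2:**
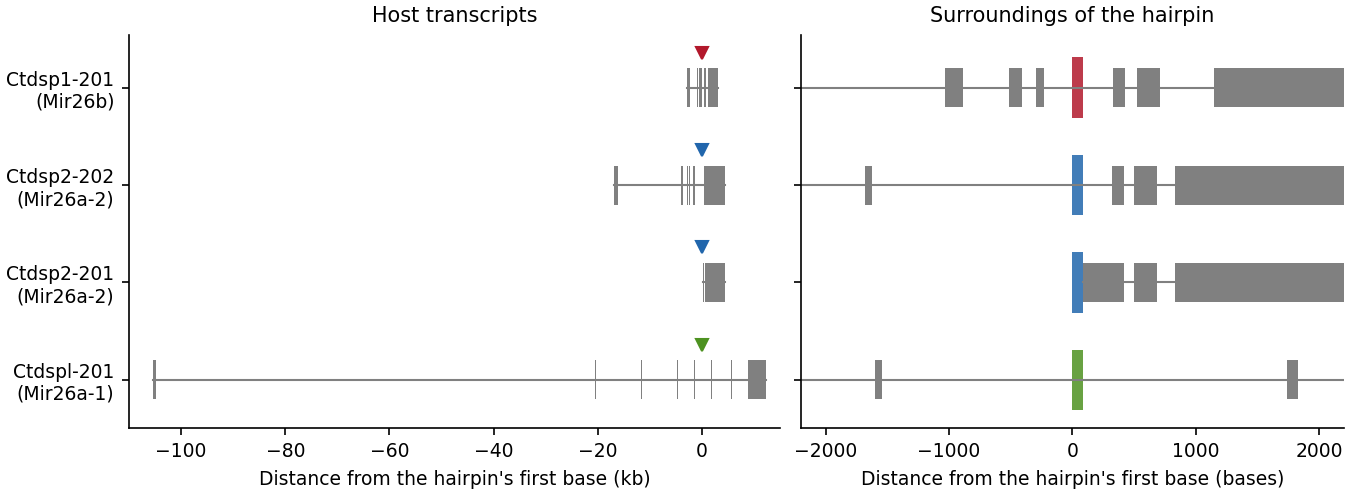
Host transcripts with their exons (grey blocks) and the miRNA hairpin (triangle or coloured block), by distance from the first base of the hairpin, in kb over the whole gene (left) and in bases near the hairpin (right). The hairpin lies in an intron of each host, and Mir26a-2 also meets the first exon of a shorter Ctdsp2 transcript by 1 base.

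On the sense strand of miRNA genes, replicate 1 had 5752428 counted reads (33.8% of its reads) and replicate 2 had 3333149 (31.0%). Levels are given as CPM, the counts of a gene per 1e6 of these. A count of 0 allowed up to 0.522 CPM in replicate 1 as against 0.900 CPM in replicate 2. All 16 marker genes looked at for cell types of the gland and its surroundings had counts in both libraries. The markers of steroid-producing tissue, Mir132 and Mir212, summed to 1452 CPM in replicate 1 as against 1537 CPM in replicate 2, and the neuroendocrine Mir375 and Mir7b to 72445 and 51056 CPM in the same order. In each of these lists 1 gene was called higher in replicate 1 (Mir132, Mir375) and 1 lower (Mir212, Mir7b). The exact binomial test behind these calls, described below, called 59.6% of all genes tested. Among the 16, the largest fold between the libraries was at Mir451a, a gene of red blood cells, with 21615 CPM in replicate 1 as against 695 CPM in replicate 2.

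Mir26b was an abundant miRNA gene of the adrenal gland, while Mir26a-2 and Mir26a-1 had few counted reads. Mir26b had 89206 counts in replicate 1 and 87521 counts in replicate 2. As levels these were 15508 CPM (95% exact Clopper-Pearson interval 15407 to 15609) and 26258 CPM (26086 to 26430), or 20883 ± 7602 CPM (mean ± SD, n = 2). It ranked 15 in replicate 1 and 13 in replicate 2 among all miRNA genes. These ranks leave out reads aligned to several places, so genes with copied products are ranked without such reads. The intervals cover counting error only, as PCR copies of a molecule are counted again, and the distance between the animals was far wider.

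Mir26a-2, the copy in Ctdsp2, had 91 counts in replicate 1 and 62 counts in replicate 2. Its level was 15.8 CPM (interval 12.7 to 19.4) and 18.6 CPM (14.3 to 23.8), with a mean of 17.2 ± 1.97 CPM (SD, n = 2) and rank 276 by mean CPM. The intervals overlap, which is not itself a test. The exact binomial test described below did not tell the animals apart for this gene at this depth. Mir26a-1, the copy in Ctdspl, was the lowest member, with 21 and 10 counts. That is 3.65 CPM (interval 2.26 to 5.58) in replicate 1 and 3.00 CPM (1.44 to 5.52) in replicate 2, on average 3.33 ± 0.460 CPM (SD, n = 2) at rank 354. All 3 members reached 2 CPM in both libraries, as did 372 of the 2202 genes, whose median level was 86.8 CPM. No read was counted on the strand opposite to a member.

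**Figure D3:**
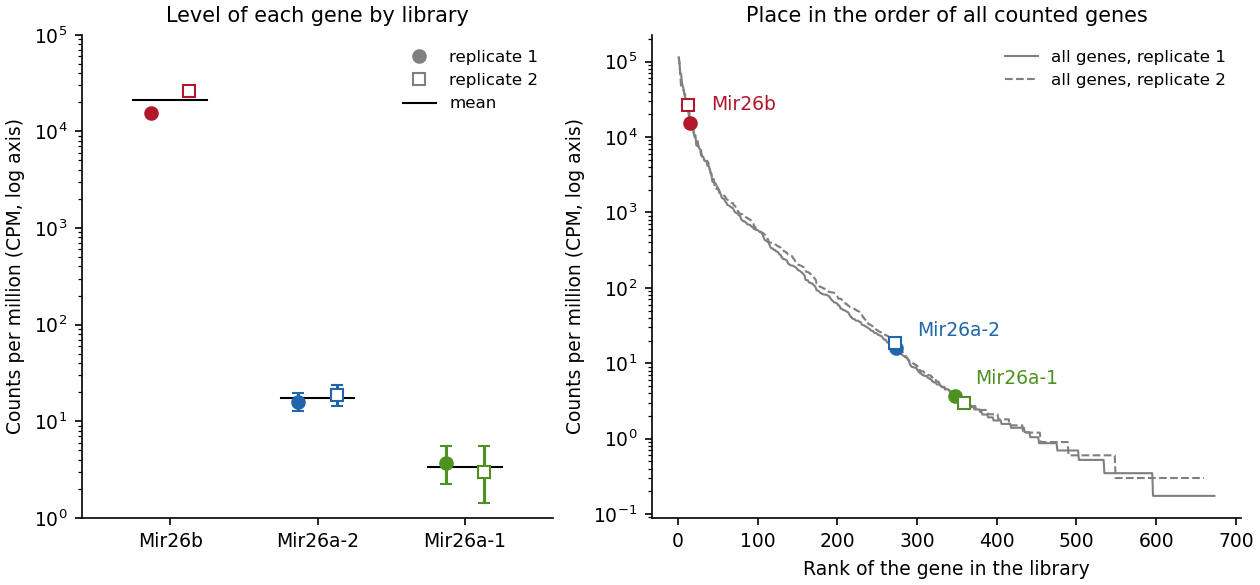
Left, CPM of each gene on a log axis for replicate 1 (filled) and replicate 2 (open), with 95% exact Clopper-Pearson intervals and the mean as a line; right, the same points on the curve of all counted genes, by rank. Mir26b lies at ranks 15 and 13, and the Mir26a genes lie at rank 272 or beyond in both libraries.

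The 3 genes together took 1.55% of the miRNA counts in replicate 1 and 2.63% in replicate 2. Mir26b supplied 99.9% of this in both. Within replicate 1, Mir26b had 980 times the counts of Mir26a-2 and 4248 times those of Mir26a-1. In replicate 2 it had 1412 and 8752 times their counts. On the log2 scale, with 0.5 counts added, Mir26b exceeded Mir26a-2 by 10.19 ± 0.37 and Mir26a-1 by 12.52 ± 0.71 (mean ± SD, n = 2). Per base of annotated hairpin the differences in log2 level were 10.17 ± 0.37 and 12.60 ± 0.71, since the hairpins have nearly the same length. The order Mir26b, Mir26a-2, Mir26a-1 held in both animals, each step larger than the spread between them.

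The place of Mir26b above Mir26a is an order of counted reads, not of the amounts of miR-26b and miR-26a. The reads aligned to several places were 49.9 times the Mir26b counts in replicate 1 and 35.4 times in replicate 2. A share of 2.00% of these reads in replicate 1, or 2.83% in replicate 2, would equal the Mir26b counts. How many of them were miR-26a-5p reads is not given in the files, so the order of the 2 mature miRNAs is not known from these values.

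Between the Mir26a copies, the one in Ctdsp2 had the higher count in both animals. Of the reads counted at either copy, Mir26a-2 took 81.2% in replicate 1 (interval 72.8 to 88.0) and 86.1% in replicate 2 (75.9 to 93.1). The log2 ratio of Mir26a-1 over Mir26a-2 was -2.33 ± 0.34 (mean ± SD, n = 2), and -2.43 ± 0.34 per base of hairpin. This difference concerns the reads that could be assigned to 1 copy, and the division of the shared 5p product between the loci was not measured.

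Other miRNAs with 2 gene copies gave a scale for these counts. Of 43 such pairs in the annotation, 20 had 10 or more counts in mean at both copies, and the longest stretch shared by the copies ran from 22 to 28 bases in them. The Mir26a pair had the lowest sum of the 20, with 19.5 CPM in replicate 1 as against 21.6 CPM in replicate 2. This filter bears on that place, since pairs with fewer counts at a copy were left out. Some of those had lower sums, such as Mir219a with 18.3 CPM on average. Mir194 (30.1 CPM) and Mir128 (46.0 CPM) had higher ones. Within the 20, the sums of the other 19 pairs were between 24.0 and 5282 CPM on average, with a median of 266 CPM. The highest were those of Mirlet7f (5282 ± 322 CPM), Mirlet7c (3090 ± 489 CPM), Mir16 (1158 ± 445 CPM) and Mir92 (973 ± 37.2 CPM). Those next above Mir26a were Mir450 with 24.0 ± 1.26 CPM and Mir103 with 24.9 ± 4.70 CPM. Mir103 lies, like the Mir26a genes, in introns of related host genes, the Pank genes.

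Unequal copies were common among these pairs. The absolute log2 ratio between copies was 2.33 for Mir26a, against a median of 1.71 over the other 19 pairs, and 12 of these 19 had a smaller one. The signed log2 ratio of copy 1 over copy 2 was lowest for Mir181b (-6.32) and highest for Mir92 (4.21). In all 20 pairs the same copy was the higher one in both animals. As with Mir26a, these ratios compare only the reads that could be placed at 1 locus.

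**Figure D4:**
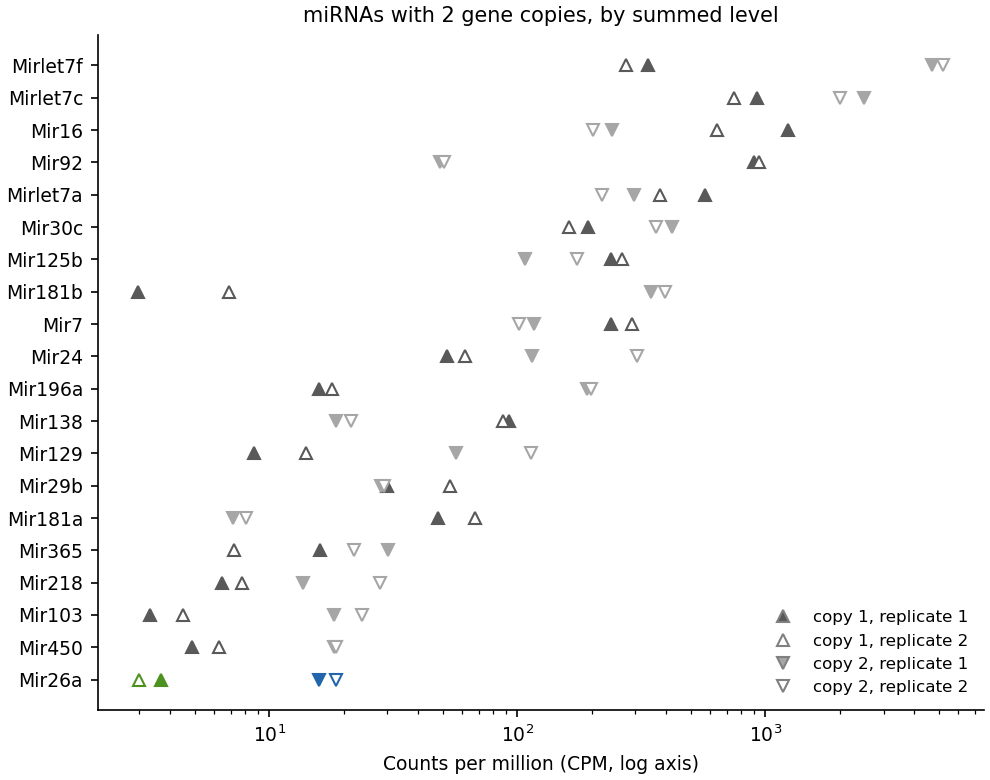
CPM on a log axis of copy 1 (upward triangles) and copy 2 (downward triangles) in replicate 1 (filled) and replicate 2 (open), ordered by summed level. Shown are the 20 miRNAs with 2 gene copies that both had 10 or more counts in mean. The Mir26a pair stands at the bottom, with Mir26a-1 at 3.65 and 3.00 CPM and Mir26a-2 at 15.8 and 18.6 CPM.

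In the order of all miRNA genes, the place of Mir26b differed little between the animals but was not sharp. In CPM, without regard to length, directly above it were Mir143, the miRNA of smooth muscle, with 31829 ± 77.7 CPM, and Mir139 with 31438 ± 7340 CPM (mean ± SD, n = 2). Directly below were Mir127 of the imprinted Dlk1-Dio3 region with 17696 ± 577 CPM and Mir22 with 16932 ± 9037 CPM. Mir143 was higher than Mir26b in both libraries without overlap. Mir127 was above Mir26b in replicate 1 (18104 CPM) and below it in replicate 2 (17288 CPM), so these neighbours were not ordered. The ranges of 4 genes met that of Mir26b, at ranks 12 to 21, and its place by mean CPM, rank 13, is therefore loose. The order is also one of reads placed at 1 gene, and reads aligned to several places could change it.

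The Mir26a genes stood among neighbours whose levels, in CPM without regard to length, met theirs. Around Mir26a-2 were Mir190b (17.8 ± 8.74 CPM), Mir219a-1 (17.3 ± 1.05 CPM), Mir196a-1 (16.9 ± 1.54 CPM) and Mir199b (16.3 ± 6.02 CPM). Around Mir26a-1 were Mir3107, Mir5131, Mir1964 and Mir6968, with means between 3.27 and 3.63 CPM. The ranges of all 8 over the libraries overlapped that of the Mir26a gene beside them. Mir546, a miRNA gene annotated 2826 bases downstream of Mir26a-2 and in the same host Ctdsp2, had 2 counts in each library, which is under the limit of 3 counts used for a count of 0.

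Mir26b had a lower level in replicate 1 than in replicate 2, and the Mir26a genes were not told apart between the animals. After TMM scaling, the log2 ratio of replicate 1 over replicate 2 was -0.56 for Mir26b (SE 0.0069 from counting). On this scale Mir26b was 1.48-fold higher in replicate 2, while the CPM given above, which are not TMM-scaled, differ 1.69-fold in the same direction. In a two-sided exact binomial test of the 2 libraries over the 389 genes whose mean count was 10 or more, Mir26b had a Benjamini-Hochberg adjusted p of 1e-300, the smallest value written. Of the 3 members, this 1 was called. The test called 59.6% of the 389 genes, 28.8% lower and 30.8% higher in replicate 1, so a call was the usual outcome. It counts reads of 1 library on each side, and says nothing about variation among further animals. With total counts for scaling, 85 genes were called higher and 170 lower, against 120 and 112 with TMM. The median log2 ratio of the genes tested was -0.19 with total counts, against 0.0064 with TMM. Relative to these medians, Mir26b had a log2 ratio of -0.57 with either scaling. That could not come out otherwise, since a change of scaling moves the ratios of all genes by the same amount.

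In size, the Mir26b difference lay near the middle of those of all 389 genes tested. Many of these genes had far fewer counts than Mir26b, and so larger counting error in their ratios. The median absolute log2 ratio of the genes tested was 0.40, and 62.5% of them had a smaller one than Mir26b. After TMM scaling, a ratio of 1.5-fold or more was reached by 35.2% of the genes, with 18.3% lower in replicate 1. Mir26b did not reach it after TMM scaling (1.48-fold) but did by total counts (1.69-fold). With the common dispersion that edgeR estimated from these libraries, a biological coefficient of variation of 0.361, the edgeR exact test gave Mir26b an adjusted p of 1. It called 4 of the 389 genes (1.03%). This dispersion was estimated from the same 2 libraries that are compared, 1 on each side, so few calls could be made and nothing about Mir26b is read from it. The exact binomial call, for its part, takes account of counting error only. Among the 20 most abundant genes, 6 were lower in replicate 1 after TMM scaling and 11 in CPM, and of the others only Mir22 had a lower log2 ratio (-0.95) than Mir26b. In the other direction, Mir375 (0.77), Mirlet7d (0.64) and Mir378a (0.56) had log2 ratios at least as large in size.

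For Mir26a-2 the log2 ratio was -0.04 (95% interval from counting error -0.50 to 0.43; adjusted p = 0.98 in the exact binomial test). For Mir26a-1 it was 0.45 (-0.62 to 1.51; adjusted p = 0.57 in the same exact test). The interval of Mir26a-1 includes the ratio of Mir26b, while that of Mir26a-2 ends just above it. Whether the members differed in this ratio was not tested.

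**Figure D5:**
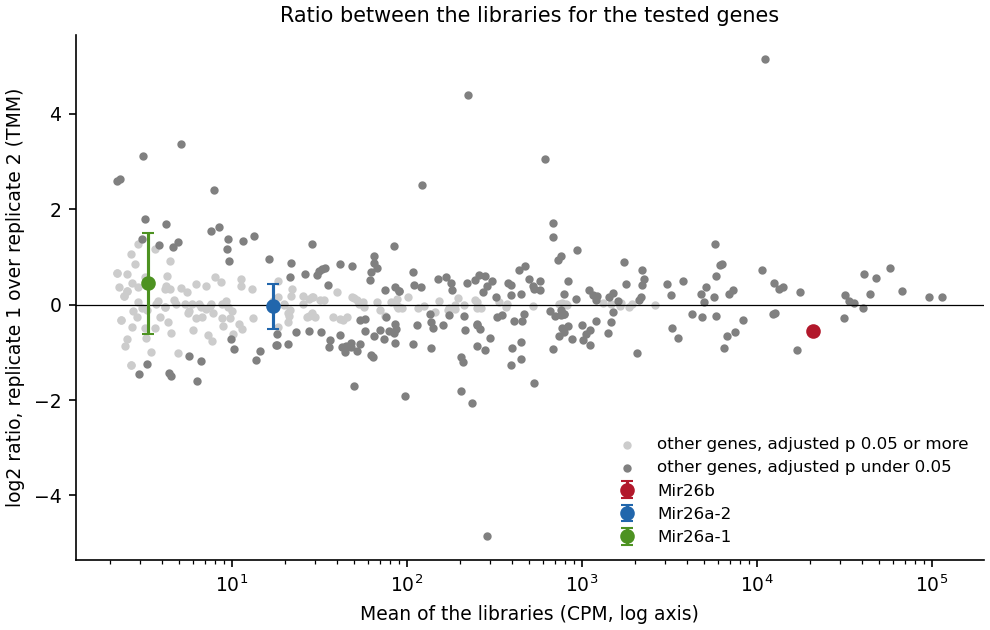
The log2 ratio of replicate 1 over replicate 2 after TMM scaling against the mean CPM, on a log axis, for the 389 genes tested; bars on the 3 members are 95% intervals from counting error. Mir26b lies at -0.56, among other called genes, and the intervals of Mir26a-2 and Mir26a-1 include 0.

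Genes of red blood cells were higher in replicate 1, where Mir26b was lower. Both genes of that marker list, Mir451a and Mir144, were called higher, and summed to 22700 CPM in replicate 1 as against 846 CPM in replicate 2. These 2 genes made up 2.27% of the miRNA counts in replicate 1 and 0.0846% in replicate 2. Leaving them out of the total could therefore move a ratio by total counts only slightly. Without them the log2 ratio of Mir26b was -0.73, against -0.76 with them, and nothing about their part is read from this. The liver marker Mir122 was lower in replicate 1, with 690 CPM against 1331 CPM in replicate 2. The 3 kidney markers summed to 91.8 and 136 CPM in the same order. Of these, Mir192 and Mir204 were called lower in replicate 1, and Mir194-2 was not called (log2 ratio 0.15). Of all 16 marker genes, 7 were called higher and 8 lower in replicate 1, by a test that called 59.6% of the 389 genes. The part of the marker genes in the Mir26b difference was not tested.

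With 1 ratio per gene, likeness to a member can only mean a similar ratio between 2 libraries. Of 258 other genes with 100 or more counts in mean, those nearest to Mir26b were Mir484 (log2 ratio -0.56), Mir380 (-0.57) and Mir192 (-0.55). For Mir26a-2 they were Mir24-1, Mir615 and Mir874, with ratios between -0.04 and -0.03. For Mir26a-1 they were Mir16-2, Mir107 and Mir433, with ratios between 0.43 and 0.45.

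The Mir29 and Mir30 genes, further broadly expressed families, differed among themselves in this ratio. Of their 11 genes, 10 were tested, 5 were called higher in replicate 1, 3 were called lower and 2 were not called. Over all 389 genes tested, 30.8% were called higher and 28.8% lower, so calls in both directions were usual. The median log2 ratio of the 10 genes was 0.17, against 0.0064 over all genes tested. Mir29a had levels of 5533 and 9475 CPM in replicates 1 and 2 (log2 ratio -0.58), and Mir30e had 4836 and 8742 CPM (-0.66). Both were lower in replicate 1, like Mir26b. Mir30d was higher in replicate 1, at 7786 CPM against 4921 CPM in replicate 2 (0.86), as was Mir30a (0.31). All 11 were below Mir26b in both libraries, though the copied genes Mir29b-1, Mir29b-2, Mir30c-1 and Mir30c-2 leave out reads that aligned to several places.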

How the data were processed

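Small RNA of adrenal glands was sequenced by the authors, 1 library per animal. The deposited values are raw read counts for every miRNA gene of GENCODE M21, aligned by the authors to mm10, per the labels and the text file deposited with each library. For the aligner and the trimming no statement is given in the sources used here. The column for the gene's own strand was used. The 4 rows that name no gene, 66.2% of reads in replicate 1 and 69.0% in replicate 2, stayed out of totals and tests.

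CPM are a gene's share of the reads counted at miRNA genes, times 1e6. Log2 ratios have 0.5 counts added. With 1 group, edgeR's quasi-likelihood test could not be fitted between single libraries. An exact binomial test on TMM effective sizes was used (threshold 0.05 after Benjamini-Hochberg adjustment). It was tried on simulated data with counting error only, which cannot show how often variation between animals leads to a call. Sequences came from RefSeq (GRCm38.p6), and windows were searched in GENCODE M21 transcripts on both strands.

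Members and lists were chosen with earlier results of these data known. Named are the members, 2 genes above and below each by mean CPM, the 3 nearest log2 ratios among genes with 100 or more counts in mean, genes within 10 kb, genes sharing a seed, the leading Mir29 and Mir30 genes, and the highest and extreme copy pairs. Mir450 and Mir103, next above the Mir26a pair, and the left-out pairs Mir219a, Mir194 and Mir128 were named after their values were seen. The tests ran in R 4.3.3 with edgeR 4.0.16, and with DESeq2 1.42.0 for its size factors, the rest in Python 3.11.15 with SciPy 1.17.1 and pandas 2.3.3, and plots with matplotlib 3.10.9.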

Additional observations from a re-analysis of the deposited data

How the results depend on the processing

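Levels followed their denominator. Per 1e6 of all reads, Mir26b had 6694, Mir26a-2 5.56 and Mir26a-1 1.08, and per 1e6 aligned reads 9776, 8.16 and 1.60. Without the 10 most abundant other genes in the total they had 49152, 40.8 and 7.94 CPM, and per base of hairpin 246, 0.205 and 0.0369 CPM. Counted without regard to strand, Mir26b had 24697, Mir26a-2 20.4 and Mir26a-1 3.96 CPM. Leaving out 1 library gave 15508 to 26258 CPM for Mir26b, 15.8 to 18.6 CPM for Mir26a-2 and 3.00 to 3.65 CPM for Mir26a-1. The log2 ratios between members kept their sign and moved by less than the SD under other added counts and per base of hairpin. The division by hairpin length shifts each ratio by a fixed amount. Counting without strand could not move them, as no read was counted on the strand opposite to a member. The log2 ratio of Mir26b between the libraries was -0.76 to -0.56 over 8 alternatives, with adjusted p of 1e-300 in all but the edgeR exact test with the common dispersion (-0.56, adjusted p = 1). Those of Mir26a-2 (adjusted p 0.45 to 1) and Mir26a-1 (0.57 to 1) were not called under any. Genes called numbered 198 to 255 under other scalings and filters, 4 with the common dispersion and 137 by a fold of 1.5 without a test. Leaving out the red blood cell genes was chosen after seeing the data. At 10 CPM in both libraries 2 members were detected. No paired analysis was possible because there is 1 group. With 1 library left there is no ratio between libraries. Depth limits the Mir26a genes, where 10 to 91 counts leave wide intervals.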

Other observations

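The seed of the 3p products of Mir26a-2 and Mir26b, CUGUUCU, occurred in the 3p products of 2 further genes of the RefSeq table, Mir6932 on chromosome 11 and Mir7039 on chromosome 5. Mir6932 had 2 counts in replicate 1 and 0 in replicate 2, and Mir7039 had 0 in both, which allows up to 0.522 CPM in the first library and 0.900 CPM in the second. The seed of miR-26a-1-3p, CUAUUCU, was found in no other product of the table.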
